A study of Mus musculus with 26 samples.

Results

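The step from early to late positive selection in OT-1 thymocytes was described by comparing 3 libraries of sorted early cells with 3 libraries of sorted late cells, 6 of the 26 RNA-seq libraries of the study. Every gene symbol with a normalized count of at least 10 in at least 2 of the 26 libraries was taken, which left 16372 of 46517 symbols. The study followed thymocytes that carry a transgenic (TCRtg) T cell receptor of low (TG6), intermediate (F5) or high (OT-1) self-reactivity through 3 stages of development to the CD8 lineage. Early positive selection cells were CD4+CD8+ (DP) thymocytes sorted as CXCR4+ and CCR7-, late cells were DP thymocytes sorted as CXCR4- and CCR7+, and mature CD8SP cells were CD4-CD8+ and likewise CXCR4- and CCR7+. All OT-1 mice were OT-1tg Rag2KO on the C57/BL6 strain, so early, late and mature cells shared the transgene and the Rag2 deletion. The OT-1 receptor recognises an ovalbumin peptide on the MHC class I molecule H-2Kb, and in the absence of Rag2 no other receptor can be assembled, so each group stands for cells with 1 rearranged receptor. For comparison, F5 mice were F5tg Rag1KO (3 early and 3 late libraries), and TG6 mice were H2b/d TCRtg animals from a cross of C57/BL6 with B6.C-H2d/bByJ, with no Rag deletion (3 early and 2 late libraries). The labels give no age for these mice.

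Positive selection is the test that a DP thymocyte passes in the thymic cortex when its receptor engages self-peptide on MHC weakly enough to be rescued rather than deleted. A cell that passes stops rearranging its receptor genes, loses the cortical chemokine receptor CXCR4, gains the medullary receptor CCR7, settles its CD4 or CD8 lineage and later becomes competent to leave the thymus. In the medulla the thymocytes meet further self-antigen, interferons and cytokines, and expand before they are exported.

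Deposited values were normalized counts, that is, estimated reads per gene scaled between libraries. They summed to between 17474974 and 18041534 in the 6 libraries, corresponding to 17098973 to 17968206 estimated reads. Pearson's r of the log2 values across genes was 0.971 to 0.976 between libraries of the same stage and 0.936 to 0.951 between early and late libraries. Changes are given as late minus early on the log2(value + 1) scale with their standard error (SE), and adjusted p-values are from limma with Benjamini-Hochberg correction over all genes tested. A gene was called at an adjusted p under 0.05, which held for 4367 genes (26.7% of those tested). Of these, 2080 rose (12.7%) and 2287 fell (14.0%) at the late stage. The libraries of the 2 stages did not overlap in 7227 genes (44.1%), among them 4259 of the called genes. Large changes were mostly decreases, with 216 genes higher by more than 2 on the log2 scale and 478 lower by more than 2. The median change over all genes tested was 0.02, and the counts and medians of the gene groups are read against these shares and this median.

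**Figure D1:**
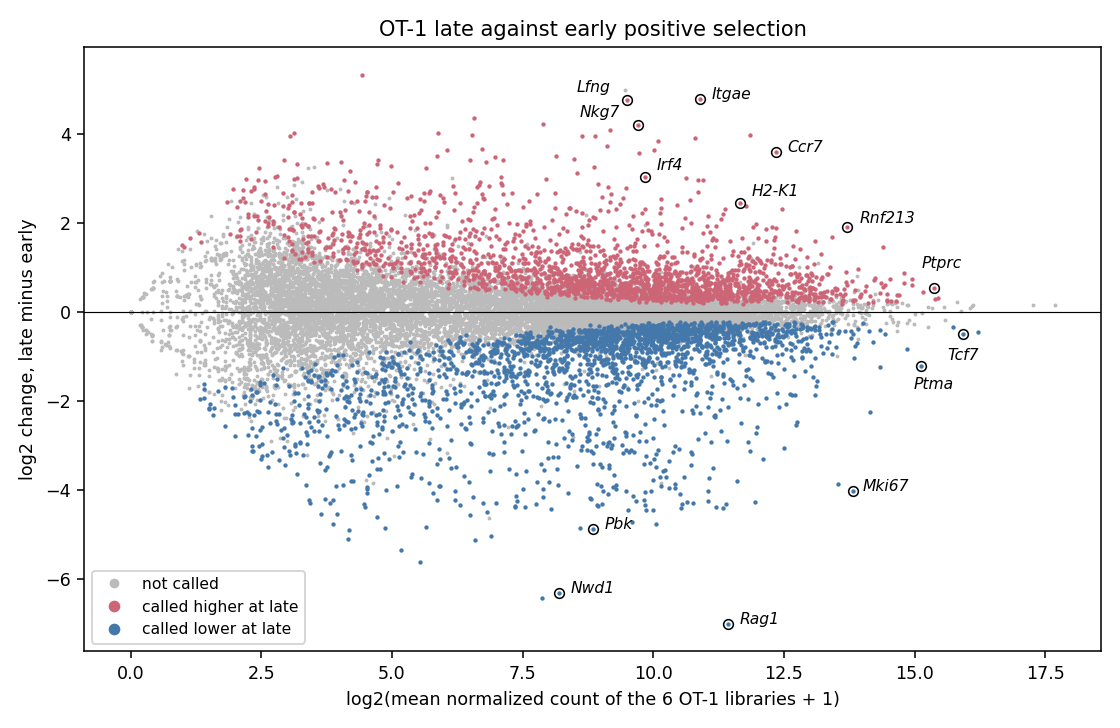
Change from early to late positive selection in OT-1 thymocytes (late minus early, log2 scale) for each gene tested, against its mean log2 level over the 6 libraries; 2080 genes called higher at late are red, 2287 called lower are blue and the rest grey. The labelled genes run from Rag1 at -7.02 to Lfng and Itgae, both at 4.79.

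The markers of the sort were looked at as a check of the labels and not as a finding. Ccr7 had 863, 826 and 648 normalized counts in the early libraries and 10456, 10976 and 7279 in the late libraries, a change of 3.60 ± 0.35 (adjusted p = 2.3e-07). Cxcr4 had 1742, 1425 and 2898 at the early stage and 756, 350 and 1432 at the late stage, so its groups overlapped, and its change of -1.41 ± 0.43 (adjusted p = 0.018) lost its call when either early replicate 3 (0.10) or late replicate 2 (0.14) was left out. Both receptors thus moved in the direction of the gates. Cd4 transcripts fell from 7980, 8114 and 7985 to 1963, 1455 and 4103 (-1.82 ± 0.50, adjusted p = 0.0089; 0.058 without late replicate 2), although both populations were sorted as CD4+. Cd8a, at 16123 to 20020 early and 15088 to 16812 late, was not called, and Cd8b1 changed by -0.40, with an adjusted p of 0.072 to 0.22 on leaving out any OT-1 library but early replicate 2. Transcripts of Cd3e, an invariant chain of the receptor complex, were abundant at both stages (4798 to 5287 and 7216 to 7494).

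The largest decrease lay in the receptor assembly machinery. Rag1, which encodes the catalytic subunit of the V(D)J recombinase, lies on chromosome 2 at 101638282 to 101649501 (GRCm38, minus strand). It had 5183, 4303 and 6987 normalized counts in early and 33.1, 24.1 and 82.1 in late libraries, a change of -7.02 ± 0.88 (adjusted p = 6.3e-06) and the largest decrease of any gene taken by the naming rule. No late value came near an early value, and the mature libraries were at 233, 203 and 545. In bulk libraries such as these, fewer cells of a type and less RNA per cell cannot be told apart. Rag2, the partner subunit, had 183, 176 and 291 early and 9.39, 11.1 and 5.37 late (-4.51 ± 1.00, adjusted p = 0.0018). These mice carry a Rag2 deletion, and reads from an intact and from a disrupted allele cannot be separated in these counts, so Rag2 reports on the locus and not on the protein.

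Dntt, the terminal transferase that adds bases at the joins of receptor genes, went from 7107, 6856 and 9799 to 753, 622 and 1037 (-3.31). Ptcra, the surrogate alpha chain of the pre-T cell receptor, went from 111, 153 and 185 to 4.14, 5.23 and 11.2 (-4.34). Neither gene overlapped between stages, and Dntt averaged 1698 ± 753 (SD, n = 3) in the mature libraries, also well below the early level. Of 21 genes of receptor assembly and the DP stage, 12 fell (14.0% over all genes) and 1 rose (12.7%). Their median change was -1.09 against 0.02 over all genes, and 15 did not overlap (44.1% over all genes). The other members that fell included Aqp11 (-4.31), Arpp21 (-2.71), Lig4 (-2.01), the DNA ligase of end joining, Notch3 (-1.97), a receptor active in early thymocytes, and the E proteins Tcf12 (-0.59) and Tcf3 (-0.53), which hold the DP programme in place. The member that rose was Dtx1, which encodes the Notch regulator Deltex 1, from 2347, 1973 and 2084 to 5851, 5308 and 4004 (1.23 ± 0.20, adjusted p = 0.00012).

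Of 11 genes that the study had defined from independent microarrays as a preselection DP signature, 7 fell (14.0% over all genes) and none rose (12.7%) in OT-1 cells (median -1.04). They included Plxnd1 (-1.97), a semaphorin receptor, Glcci1 (-1.64), Ets2 (-1.12), a transcription factor, and Spo11 (-1.02), known as the meiotic recombination endonuclease. Themis, a thymocyte regulator of receptor signalling, was at 7551, 7123 and 8552 early and 6818, 6320 and 6793 late, and its change of -0.22 had an adjusted p of 0.054 (0.032 without early replicate 2). Cd24a, which is lost during maturation, was not called either, at 5398 to 6791 early and 2539 to 3246 late (-1.09, adjusted p = 0.052), although its libraries did not overlap.

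**Figure D2:**
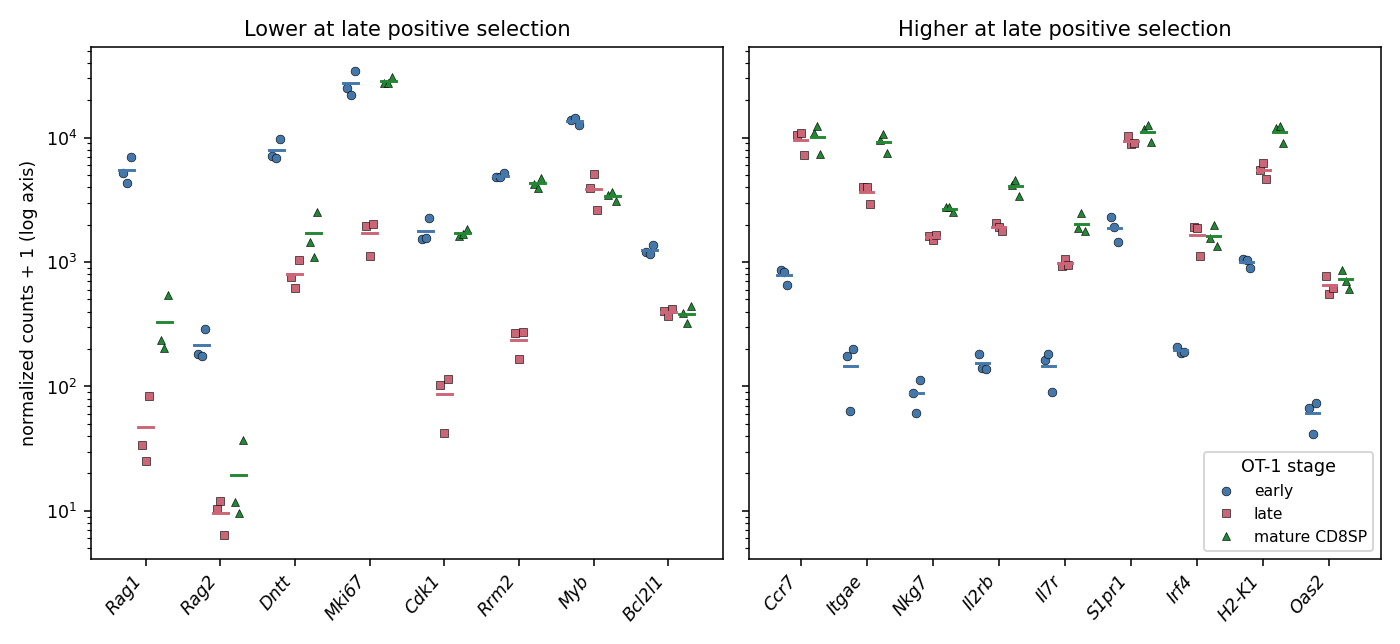
Normalized counts + 1 (log axis) of selected genes in each OT-1 library at the early, late and mature CD8SP stages, with a point for each library and a bar for the mean. On the left, Rag1, Rag2, Dntt and Bcl2l1 stay low in the mature cells and Mki67, Cdk1 and Rrm2 return to their early level; on the right, Itgae, Nkg7, Il2rb and H2-K1 go on rising in the mean.

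Genes of proliferation formed the most uniform group. All 44 genes of G2/M and mitosis fell, where 14.0% of all genes did, with a median change of -3.80. None overlapped between stages, where 44.1% of all genes did not. Of 42 genes of DNA replication and S phase, 41 fell and none rose, with a smaller median of -1.68. Cdk1, the kinase that drives entry into mitosis, had 1526, 1549 and 2243 normalized counts early and 102, 41.1 and 115 late (-4.46 ± 0.79, adjusted p = 0.00024). Mki67, the proliferation antigen, had 25127, 22110 and 34572 early and 1966, 1123 and 2011 late (-4.03 ± 0.77, adjusted p = 0.00048). Rrm2, the regulated subunit of ribonucleotide reductase, had 4797, 4784 and 5226 early and 268, 166 and 271 late (-4.42 ± 0.72, adjusted p = 9.9e-05). Late replicate 2 was the lowest library for each of these genes, and every late library lay far below every early library.

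The promoters of Cdk1 and of Cdc6, the licensing factor that loads the replicative helicase, are shown because their classes fell together and because they hold the short motifs known from mitotic and S phase genes. The sequences are the bases upstream of the RefSeq start that no annotated exon of the gene covers (RefSeq, GRCm38.p6), 5′ to 3′ on the gene's strand, at chr10:69352939-69353162 on the minus strand for Cdk1 and chr11:98907982-98908150 on the plus strand for Cdc6. Capitals mark TTTGAA, the core of the cell cycle homology region, ATTGG, which is CCAAT read on the other strand, and GCGGGAAA, which is the E2F motif TTTCCCGC read on the other strand.
Cdk1: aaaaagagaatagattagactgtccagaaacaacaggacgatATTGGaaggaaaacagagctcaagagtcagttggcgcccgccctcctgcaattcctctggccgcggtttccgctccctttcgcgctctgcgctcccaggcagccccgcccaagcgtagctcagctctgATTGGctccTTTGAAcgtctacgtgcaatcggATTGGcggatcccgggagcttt
Cdc6: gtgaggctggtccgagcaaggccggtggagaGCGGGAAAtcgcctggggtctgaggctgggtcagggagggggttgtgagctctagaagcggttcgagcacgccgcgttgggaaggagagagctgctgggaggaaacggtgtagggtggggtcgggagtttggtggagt
In Cdk1, TTTGAA began 71 bases upstream of the start, with another match at 15 bases, in the annotated first exon and so not printed, and the inverted CCAAT boxes at 208, 80 and 48 bases. In Cdc6, the inverted E2F motif began 138 bases upstream. On either strand of the 300-base RefSeq windows, TTTGAA was found in 29 of 38 G2/M genes with an entry (76.3%), in 5 of 34 S phase genes (14.7%) and in 20.2% of all 27025 gene symbols in the table (17.9% of its 32851 promoters). CCAAT was found in 73.7% of the G2/M genes, 58.8% of the S phase genes and 41.1% of all symbols (37.4% of promoters). TTTCCCGC was found in 6 of 34 S phase genes (17.6%), 1 of 38 G2/M genes and 1.24% of all symbols (1.07% of promoters). The marked matches do not overlap each other. A match is a description of the letters in this window, not a site or a cause.

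The size of the decrease differed within the cell cycle. Among S phase genes, Rrm2 and Tyms (-3.96), the thymidylate synthase, changed most, Cdc6 went from 1199, 1463 and 1039 to 169, 110 and 131 (-3.17 ± 0.48, adjusted p = 4.8e-05), and Tk1, thymidine kinase, fell by 3.07. The replication clamp Pcna still had 2766, 2862 and 2569 normalized counts at the late stage, from 9330, 10904 and 9350 (-1.85). The helicase subunit Mcm2 fell by 0.96 and the helicase subunit Gins4 by 0.49, the smallest change in the list, with an adjusted p of 0.050 to 0.15 on leaving out any of the 6 libraries. Orc1 (-1.62, adjusted p = 0.17) was the member that was not called. In the mitotic list the cyclin Ccna2 (-4.39), the kinesin Kif4 (-4.46), the kinase Aurkb (-4.73 ± 0.75, adjusted p = 8.2e-05) and the topoisomerase Top2a (-3.87) were near the extreme, and the cytokinesis kinesin Kif23 had the smallest change, from 2106, 2213 and 2738 to 886, 882 and 1006 (-1.34). Other genes with roles in dividing cells stood among the most reduced by the naming rule, namely the mitotic kinase Pbk (-4.90), the atypical E2F repressor E2f8 (-4.77), Depdc1a (-4.46) and the tubulin Tuba1b (-2.25).

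Among the 3 OT-1 stages, the low level was that of the late stage. Summed over the mitotic list, the early libraries had 140012 to 197458 normalized counts, the late libraries 12794 to 16098 and the mature libraries 151584 to 166499. All 44 mitotic and all 42 S phase genes had a higher mean in mature than in late cells, and the median mature mean differed from the early mean by -0.03 and 0.28 on the log2 scale. Cdk1 was at 1605, 1669 and 1838 and Mki67 at 27362, 27701 and 30471 in mature cells, all within the early range. The mature stage was not tested against the others here.

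**Figure D3:**
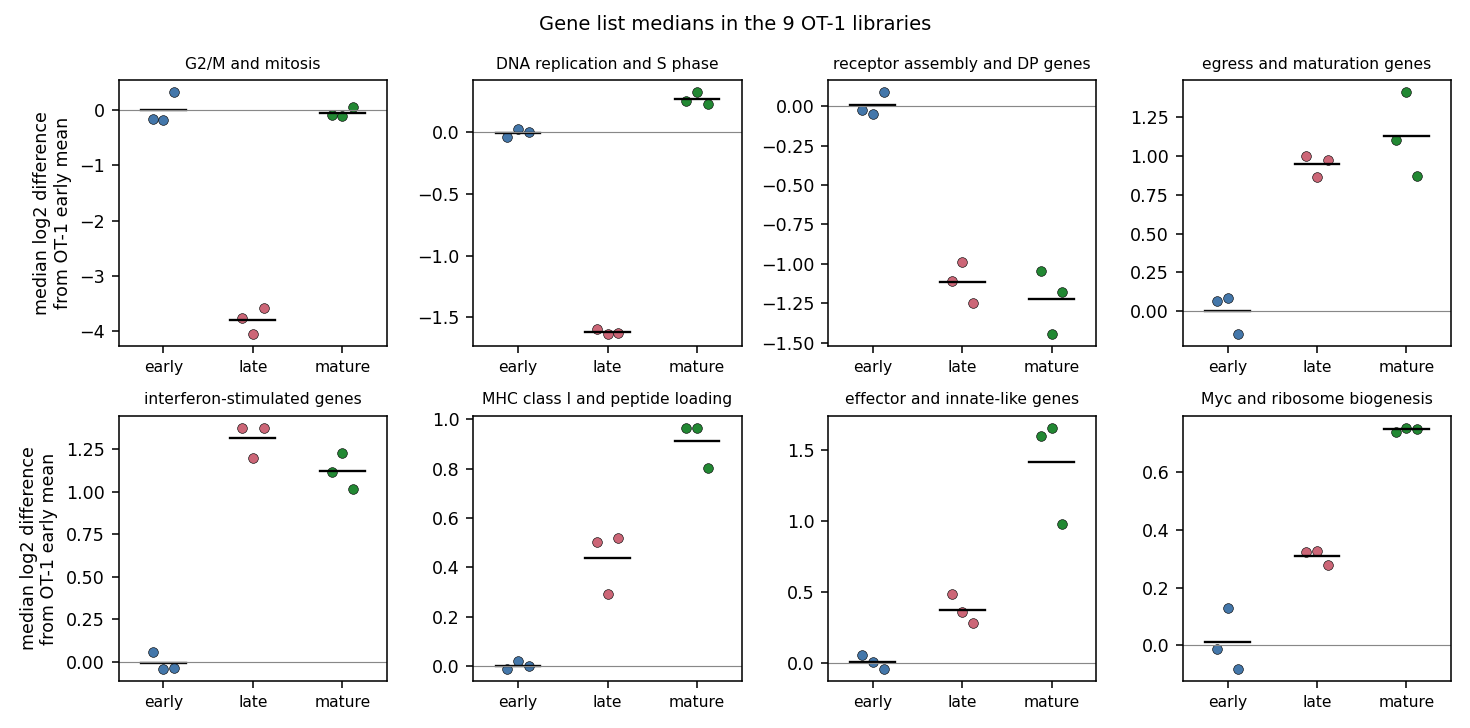
Median log2 difference from the OT-1 early mean over the members of 8 gene lists in each of the 9 OT-1 libraries, with points for libraries and a black line for the mean of each stage. The mitotic list sits at -3.59 to -4.05 in the late libraries and near 0 in the mature libraries, and the interferon-stimulated list sits at 1.2 to 1.38 in the late libraries.

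Among the groups that rose, interferon-stimulated genes were the most uniform. Of 40 measured, 36 rose, where 12.7% of all genes did, 1 fell and 3 were not called. The median change was 1.30, and 38 did not overlap, where 44.1% of all genes did not. Summed over the list, early libraries had 20537 to 21404 and late libraries 43248 to 46764 normalized counts. Oas2, an enzyme that senses viral RNA, had 66.1, 40.1 and 72.8 early and 775, 554 and 619 late (3.45 ± 0.46, adjusted p = 1.2e-05). The antiviral GTPases followed, Mx2 from 26.9, 59.8 and 20.0 to 262, 258 and 198 (2.86), and Mx1 from 18.4, 11.7 and 29.4 to 141, 107 and 132 (2.69). Rnf213, a large E3 ligase and also among the largest increases in counts, went from 6401, 5146 and 5290 to 23002, 20642 and 20118 (1.93). Irf7, the transcription factor that amplifies interferon responses, rose by 1.52. Ifit2 alone fell, from 720, 767 and 887 to 442, 390 and 529 (-0.81 ± 0.14, adjusted p = 0.00022). Stat2 (0.31), Ifi44 (1.24) and Irf1 (0.05) were not called.

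Ifit3, a member of the Ifit family of RNA-binding antiviral proteins on chromosome 19 at 34583531 to 34588731 (plus strand), went from 29.0, 34.1 and 26.6 to 166, 179 and 132 (2.37 ± 0.35, adjusted p = 3.8e-05). Its promoter (RefSeq, GRCm38.p6, chr19:34583279-34583528, plus strand) was chosen after its values were seen and is shown because it holds a pair of matches to the interferon-stimulated response element. Capitals mark this element, GAAA and GAAA separated by any 2 bases, read on the other strand, at 156 and 122 bases upstream of the start, with no overlap between the matches.
Ifit3: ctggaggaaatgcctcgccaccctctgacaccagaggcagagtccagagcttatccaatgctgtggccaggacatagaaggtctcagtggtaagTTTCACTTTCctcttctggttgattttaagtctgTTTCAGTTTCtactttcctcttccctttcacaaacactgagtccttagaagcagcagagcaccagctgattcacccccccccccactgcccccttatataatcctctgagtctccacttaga
On either strand, the element was found in 17 of 29 interferon-stimulated genes with an entry (58.6%), in 2 of 38 mitotic genes, in none of 34 S phase genes and in 3.99% of all symbols (3.44% of promoters). Several genes of this list, the Ifit, Oas and Slfn families among them, have near copies in the genome, and reads could be divided among them.

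Of 24 genes of MHC class I presentation, 12 rose (12.7% over all genes), 1 fell (14.0%) and 11 were not called (median 0.36), and 19 did not overlap (44.1%). Nlrc5, the transactivator of MHC class I genes, had 556, 576 and 370 early and 3146, 3673 and 2809 late (2.70 ± 0.21, adjusted p = 1.8e-08). H2-K1, the class I heavy chain that presents the OT-1 ligand, had 1058, 1044 and 895 early and 5515, 6280 and 4663 late (2.45 ± 0.16, adjusted p = 2.8e-09), and 11955, 12420 and 9078 in mature cells. H2-D1, a near copy of H2-K1, had 1573, 1640 and 1568 early and 5828, 7005 and 5293 late (1.91), and the light chain B2m had 4653, 4720 and 4599 early and 10864, 10752 and 11274 late (1.23). The groups lay well apart for each of these genes. The peptide editor Tapbp (1.26), the trimming peptidase Erap1 (0.83) and the proteasome activator Psme1 (0.78) rose too. The peptide transporters were not called (Tap1 0.33, Tap2 0.10), nor was the immunoproteasome subunit Psmb9 (-0.11), and Psmb8 fell by 0.33, with an adjusted p of 0.056 to 0.17 on leaving out any of the 6 libraries but late replicate 1.

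Genes induced by T cell receptor signalling showed no common direction. Of 34 measured, 7 rose (12.7% over all genes), 3 fell (14.0%) and 24 were not called (median 0.07). Irf4, a transcription factor that scales with receptor signal, had 206, 186 and 189 early and 1929, 1864 and 1124 late (3.03 ± 0.28, adjusted p = 1.3e-07). Egr3, an immediate early transcription factor, had 28, 12 and 32.5 early and 171, 148 and 221 late (2.93 ± 0.41, adjusted p = 2.2e-05). The phosphatase Dusp2 (0.90), the NF-kB regulator Nfkbid (0.71), the phosphatases Ubash3a (0.53) and Ubash3b (0.51) and Rgs1 (1.41), a regulator of chemokine receptor signals, made up the rest of those that rose. The adjusted p of Dusp2 was 0.057 to 0.079 on leaving out any library but early replicate 2, that of Rgs1 was 0.072 to 0.13 without early replicate 2, late replicate 1 or late replicate 3, and that of Ubash3b was 0.063 to 0.25 without early replicate 1 or 3 or late replicate 1 or 2.

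Cd5, an inhibitory receptor whose level follows self-reactivity, had 11790, 11682 and 12134 early and 7029, 6063 and 7913 late (-0.77 ± 0.18, adjusted p = 0.0035). Tox, a nuclear factor needed for lineage development, had 5477, 5694 and 5042 early and 4088, 3387 and 4486 late (-0.45 ± 0.11, adjusted p = 0.005), and the inhibitory receptor Pdcd1 fell by 1.31 (adjusted p = 0.051 to 0.14 without early replicate 1 or 3 or late replicate 1 or 2). Cd69, the marker of recent signalling, had 760, 796 and 1533 early and 1252, 1336 and 2297 late, and its change of 0.68 ± 0.32 was not called (adjusted p = 0.12, and 0.032 without early replicate 3). Nr4a1, which encodes Nur77, had 16128, 14650 and 6006 early and 13330, 9993 and 4592 late, a change of -0.40 ± 0.69 (adjusted p = 0.72). In Nr4a1 replicate 3 was the lowest library at both stages, and this also held in Nr4a3 (2005, 4245 and 255 early, 2136, 3344 and 512 late), so the spread within a stage exceeded the difference between stages. The labels do not say whether a replicate number marks a mouse, and the fit did not pair libraries by number. Taken by number, Nr4a1 was lower and Cd69 higher at the late stage in each replicate, and Nr4a3 had no common direction. Egr1 (0.71; adjusted p = 0.0094 without late replicate 3) and Egr2 (1.08) were not called.

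The proximal signalling machinery moved by smaller amounts. Of 32 genes, 14 rose (12.7% over all genes), 5 fell, a share near the 14.0% of all genes (median 0.18), and 24 did not overlap (44.1%). Trac, the constant region of the receptor alpha chain, had 19785, 22614 and 17664 early and 35935, 37413 and 36589 late (0.88), while the beta constant region Trbc2 fell by 0.46 (adjusted p = 0.052 after quantile normalization). The invariant chains Cd3g (0.56) and Cd3e (0.54) rose. Among the signalling proteins, the paracaspase Malt1 had 1309, 1265 and 1317 early and 2327, 2672 and 2200 late (0.88 ± 0.15, adjusted p = 0.00012), and the kinase Fyn rose by 0.70. The adaptor Sla, which promotes receptor degradation (-0.93), the ubiquitin ligase Cbl (-0.47), the Ras activator Rasgrp1 (-0.39) and the kinase Lck (-0.25) fell, and Zap70 (0.04) and Lat (0.03) were not called. The calls of Cbl and Lck were lost without early replicate 3 (adjusted p = 0.065 and 0.11) or late replicate 2 (0.051 and 0.10), and that of Cbl also without early replicate 1 (0.077) or late replicate 3 (0.053). Of 23 NF-kB and NFAT factors, 11 rose (12.7% over all genes) and 2 fell (14.0%), with a median of 0.52. Relb had 257, 302 and 214 early and 657, 852 and 651 late (1.48), and Traf3 (1.12), Nfkb2 (1.08) and Nfkb1 (0.78) rose. Nfkbie (-0.54), an inhibitor of the family, and Nfatc3 (-0.47) fell, Nfatc3 with an adjusted p of 0.053 without early replicate 3 and 0.055 without late replicate 3.

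Of 24 factors of CD4 and CD8 lineage choice, 3 rose, a share near the 12.7% of all genes, and 9 fell, where 14.0% of all genes did (median -0.24). Runx3, which sets the CD8 lineage, had 1680, 1287 and 1231 early and 4658, 4298 and 3805 late (1.61 ± 0.31, adjusted p = 0.00052). Zbtb7b, which encodes the CD4 lineage factor ThPOK, was not called (0.41), and Gata3, which favours the CD4 lineage, changed by -0.73 with overlapping libraries and an adjusted p of 0.069 to 0.25 without early replicate 1 or 3 or late replicate 1 or 2. Bcl6, a repressor that is high in DP cells, had 1085, 819 and 1962 early and 271, 294 and 301 late (-2.06 ± 0.29, adjusted p = 2.6e-05). Myb, which sustains DP cells and their proliferation, had 13954, 14350 and 12738 early and 3929, 5082 and 2627 late (-1.87). The groups stood clear of each other for Runx3, Bcl6 and Myb. Runx1 (-0.59) fell, as did Tcf7 (-0.50), which encodes TCF-1 and went from 71807, 70837 and 74658 to 51232, 48609 and 53709. Stat6 and Ikzf3 rose by 0.48 each, with an adjusted p of 0.053 and 0.13 without early replicate 2, while Stat6 was at 0.066 without late replicate 3 and Ikzf3 at 0.072 and 0.10 without late replicate 1 and 2.

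Of 28 genes of maturation and thymic exit, 17 rose, where 12.7% of all genes did, 1 fell and 10 were not called (median 0.92), and 20 did not overlap, where 44.1% of all genes did not. S1pr1, the sphingosine 1-phosphate receptor that draws cells out of the thymus, had 2303, 1923 and 1456 early and 10220, 8896 and 8976 late (2.33 ± 0.43, adjusted p = 0.00037). Klf2, its transcriptional activator, had 2100, 1882 and 1818 early and 6967, 6808 and 4916 late (1.67 ± 0.50, adjusted p = 0.017), and its adjusted p was 0.052 to 0.057 when early replicate 3, late replicate 1 or late replicate 2 was left out. Il7r, the receptor chain for the survival cytokine IL-7, had 161, 183 and 88.7 early and 932, 1057 and 948 late (2.82 ± 0.44, adjusted p = 6.7e-05). No late library fell within the early range for these genes. Ms4a4b went from 1202, 895 and 1292 to 6258, 5370 and 6028 (2.39), Foxo1, the factor upstream of Klf2 and Il7r, from 2915, 3256 and 2842 to 6941, 6969 and 6422 (1.18), and Dapl1 (2.62), Slfn1 (2.59), Samhd1 (2.32), Cd52 (1.69) and S1pr4 (1.22) rose. The costimulatory receptor Cd27 fell by 0.35 with an adjusted p of 0.079 to 0.25 without early replicate 1 or 3 or late replicate 1 or 2.

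An adhesion gene shared the largest increase among the named genes. Itgae, which encodes the αE chain (CD103) that pairs with β7 and binds E-cadherin on epithelium, lies on chromosome 11 at 73090583 to 73147446 (GRCm38, plus strand). It had 174, 62.2 and 198 normalized counts early, 4019, 3977 and 2934 late and 9508, 10722 and 7570 in mature cells. The late mean of 3643 ± 615 (SD, n = 3) was 25.2-fold the early mean of 145 ± 72.5 (change 4.79 ± 0.44, adjusted p = 1.3e-07). Its partner Itgb7 had 2256, 2119 and 1812 early and 8216, 7943 and 7120 late (1.91). Itgb3, the integrin β3 chain, had 1823, 1672 and 1347 early and 6633, 5905 and 6620 late (1.99 ± 0.20), and returned to 2168, 1985 and 2227 in mature cells. Of 23 integrins and adhesion genes measured, 11 rose (12.7% over all genes) and 4 fell, near the 14.0% of all genes (median 0.47). Icam1 (1.10), Cd226 (1.10), a receptor for nectin-like ligands, and Itgb2 (0.69), the β chain of LFA-1, rose, and Slamf6 (-1.05), Itga4 (-0.46), Itga6 (-0.32) and Itgb1 (-0.31), the chains of laminin and fibronectin receptors among them, fell. On leaving out a library, the adjusted p of Itga6 was 0.063 to 0.20 (any but early replicate 2) and that of Itgb1 was 0.073 to 0.12 (any but late replicate 3). Of 11 chemokine receptors measured, 3 were called (26.7% over all genes), and 2 of these, Ccr7 and Cxcr4, were gates of the sort, so that their direction was set by it. The other, Ccr8, had 263, 194 and 232 early and 865, 593 and 1017 late (1.82; adjusted p = 0.12 with a pseudocount of 0.1), and the thymic homing receptor Ccr9 was not called (-0.16).

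Of 34 cytokine receptor and Socs genes, 17 rose (12.7% over all genes) and 2 fell (14.0%), with a median of 0.53. Il2rb, the β chain shared by the IL-2 and IL-15 receptors, had 182, 140 and 136 early and 2054, 1925 and 1777 late (3.65 ± 0.30, adjusted p = 4.5e-08). The common γ chain Il2rg (0.78) and the kinase Jak3 (1.67), which transmit from that receptor, rose, while the α chain Il2ra went from 473, 315 and 372 to 105, 58.7 and 138 (-1.99). Il6ra went from 1063, 982 and 828 to 3774, 3243 and 3051 (1.81), Il27ra rose by 1.93, Il18r1 by 1.67, Socs3, a feedback inhibitor of cytokine signals, by 1.12 and Tgfbr2 by 1.09. Ifngr1, the ligand-binding chain of the interferon-γ receptor, fell from 7568, 7493 and 5939 to 3154, 3212 and 1864 (-1.39). Socs1 (-0.64) and Il4ra (0.17) were not called.

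Of 17 Bcl-2 family genes measured, 2 rose, a share near the 12.7% of all genes, and 5 fell, where 14.0% of all genes did (median 0.10). Bcl2l1, which encodes the survival factor Bcl-xL of DP cells, had 1207, 1152 and 1367 early and 403, 369 and 421 late (-1.64 ± 0.20, adjusted p = 4.2e-06). Bcl2, the survival factor of mature cells, had 1483, 1430 and 1368 early and 2409, 2622 and 2282 late (0.77 ± 0.18, adjusted p = 0.0024). The death-promoting member Bmf had 379, 292 and 314 early and 1347, 1009 and 1261 late, and 294, 508 and 327 in mature cells (1.87 ± 0.35, adjusted p = 0.00039). The pro-apoptotic members Bid (-0.80), Bad (-0.59) and Bak1 (-0.57) fell, each with an adjusted p of 0.077 to 0.11 without early replicate 3 or late replicate 2, and Mcl1 (0.28), Bcl2l11 (0.10), which encodes Bim, and Bax (0.14) were not called.

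Of 24 costimulatory and inhibitory receptors, 8 rose (12.7% over all genes) and 3 fell, near the 14.0% of all genes (median 0.50). Tnfrsf9 (4-1BB) had 7.70, 4.22 and 9.73 early and 83.1, 53.6 and 44.0 late (2.91), Cd40lg, the helper ligand, 50, 61.2 and 43.4 early and 194, 179 and 237 late (1.96), and Icos 652, 636 and 368 early and 1957, 2429 and 1068 late (1.68). Btla, an inhibitory receptor, rose by 1.17, and the death receptor Fas fell by 0.32 (adjusted p = 0.058 to 0.13 without early replicate 2 or 3 or late replicate 1 or 2). Of 24 effector and innate-like genes measured, 5 rose (12.7% over all genes) and 3 fell (14.0%), with a median of 0.47. Nkg7, a granule membrane protein of cytotoxic cells, had 87.9, 60.2 and 112 early and 1608, 1491 and 1642 late (4.21 ± 0.36, adjusted p = 7.8e-08). Prf1, which encodes perforin, had 127, 129 and 124 early and 376, 268 and 339 late (1.35), and Rora, a nuclear receptor, 231, 252 and 115 early and 928, 1037 and 809 late (2.28). All late values of these effector genes were above the early ones. Granzyme B (Gzmb, at most 2.09 in any of the 6 libraries) and Eomes (1.24 to 9.03) had low values at both stages, and were at 18.2 to 31.3 and 60.4 to 101 in mature cells. Gzma, which encodes granzyme A, fell by 1.58, and its adjusted p was 0.058 to 0.11 without early replicate 1, early replicate 3, late replicate 2 or late replicate 3.

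Among the 10 largest increases by the naming rule that stand in none of the groups above were Lfng, the glycosyltransferase Lunatic fringe that modifies Notch receptors, from 43.2, 34.8 and 79.2 to 1496, 1456 and 1222 (4.79 ± 0.33, adjusted p = 3.8e-09), and Crtam, an adhesion receptor of activated CD8 T cells, from 5.87, 12.8 and 5.79 to 163, 216 and 162 (4.38). Rgs11 (4.24), a regulator of G protein signals, Fam101b (4.11), Amigo2 (3.97), a cell adhesion protein, and Zfp683 (3.98), which encodes the tissue-residency factor Hobit and went from 11, 11 and 7.89 to 157, 206 and 154, rose too. Ccnd2, the D-type cyclin, rose (3.99 ± 0.69, adjusted p = 0.0002), but early replicate 3 was at 2501 where the other early libraries were at 145 and 175, and the late libraries were at 6273, 5074 and 8075. At the other end, Nwd1 went from 634, 512 and 593 to 8.88, 1.85 and 12.5 (-6.32), the sulfatase Arsi from 354, 391 and 630 to 6.21, 0 and 17.2 (-6.45), the germ cell RNA-binding gene Ybx2 from 231, 274 and 181 to 12.3, 2.38 and 6.10 (-5.05) and the guidance cue Ntn1 from 146, 165 and 204 to 9.20, 6.20 and 4 (-4.58). Each of these decreases left the late libraries an order of magnitude or more below the early ones.

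By difference in mean counts rather than by fold, the largest increases were in mt-Co3, Arhgef1, Ptprc, Rnf213 and Hmha1. Ptprc, which encodes the phosphatase CD45, had 34498, 34580 and 33492 early and 49436, 51604 and 49058 late (0.55). Arhgef1 (0.75) and Hmha1 (0.62), regulators of small GTPases, rose by similar folds. The mitochondrial transcript mt-Co3 had 15062, 15266 and 6080 early and 32330, 32784 and 28371 late (1.48 ± 0.46, adjusted p = 0.021), and its adjusted p was 0.14 without early replicate 3, 0.059 without late replicate 1 and 0.061 without late replicate 2. The largest decreases in counts were in Ptma, the chromatin-associated prothymosin α (46122, 52994 and 50546 early, 21540, 21966 and 20951 late, -1.21), and in Mki67, Tuba1b, Tcf7 and Top2a.

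Biosynthetic genes mostly changed by small amounts. Of 84 cytosolic ribosomal proteins, 39 rose (12.7% over all genes) and 1 fell (14.0%), with changes between -0.99 and 0.72 and a median of 0.24. The gene that fell, Rps27l, changed by -0.96, with an adjusted p of 0.062 to 0.093 on leaving out any of the 6 libraries. Of 77 mitochondrial ribosomal proteins, none rose, 16 fell, where 14.0% of all genes did, and 61 were not called (median -0.23). Mrpl51 was among those that fell (-1.08 ± 0.23, adjusted p = 0.0014). Ribosomal protein genes have many pseudogene copies, so their counts are less certain. Of 39 Myc-related and ribosome biogenesis genes, 12 rose (12.7% over all genes) and 2 fell (14.0%), with a median of 0.31. The RNA polymerase I subunits Polr1b, from 347, 396 and 312 to 879, 817 and 817 (1.26), and Polr1a (1.10) rose, and the Myc antagonist Mxd3, known from S phase, went from 778, 840 and 1201 to 52.0, 29.2 and 55.0 (-4.37) while Mycn fell by 2.28.

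Of 31 sterol and fatty acid genes measured, 3 rose, near the 12.7% of all genes, and 13 fell, where 14.0% of all genes did (median -0.29). The desaturase Fads2 went from 231, 193 and 179 to 19.7, 3.14 and 11.2 (-4.31), and the isoprenoid enzyme Idi1 (-1.75) fell. Of 24 glycolytic genes 4 rose and 3 fell (median 0.08), both near the shares over all genes of 12.7% and 14.0%. The lactate dehydrogenase subunit Ldhb went from 2426, 2756 and 2347 to 841, 848 and 841 (-1.57), Gapdh fell by 0.82 and Pfkp, a phosphofructokinase, rose by 0.73.

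Of 22 sialyltransferases and glycan enzymes, which shape the surface sugars that change as thymocytes mature, 6 rose (12.7% over all genes) and 3 fell, a share near the 14.0% of all genes (median 0.31). B4galnt1, a ganglioside synthase, went from 1974, 2186 and 1696 to 7199, 8078 and 6122 (1.87), the sialyltransferases St3gal5 (1.37), St3gal6 (1.33) and St3gal1 (1.04) rose, and B3gnt5 (-2.11), St3gal2 (-1.42) and Mgat5 (-0.93) fell. Of 15 ion channel genes that the study named from these libraries, so that the list is not independent evidence of a direction, 4 rose and 2 fell, where 12.7% and 14.0% of all genes did (median -0.19). Tmie went from 7.76, 3.90 and 5.36 to 65.3, 149 and 116 (4.02) and the potassium channel Kcna2 from 223, 127 and 234 to 578, 470 and 612 (1.54). The sodium channel subunit Scn2b fell from 74.2, 57.2 and 74.4 to 15.0, 16.6 and 15.2 (-2.06).

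**Figure D4:**
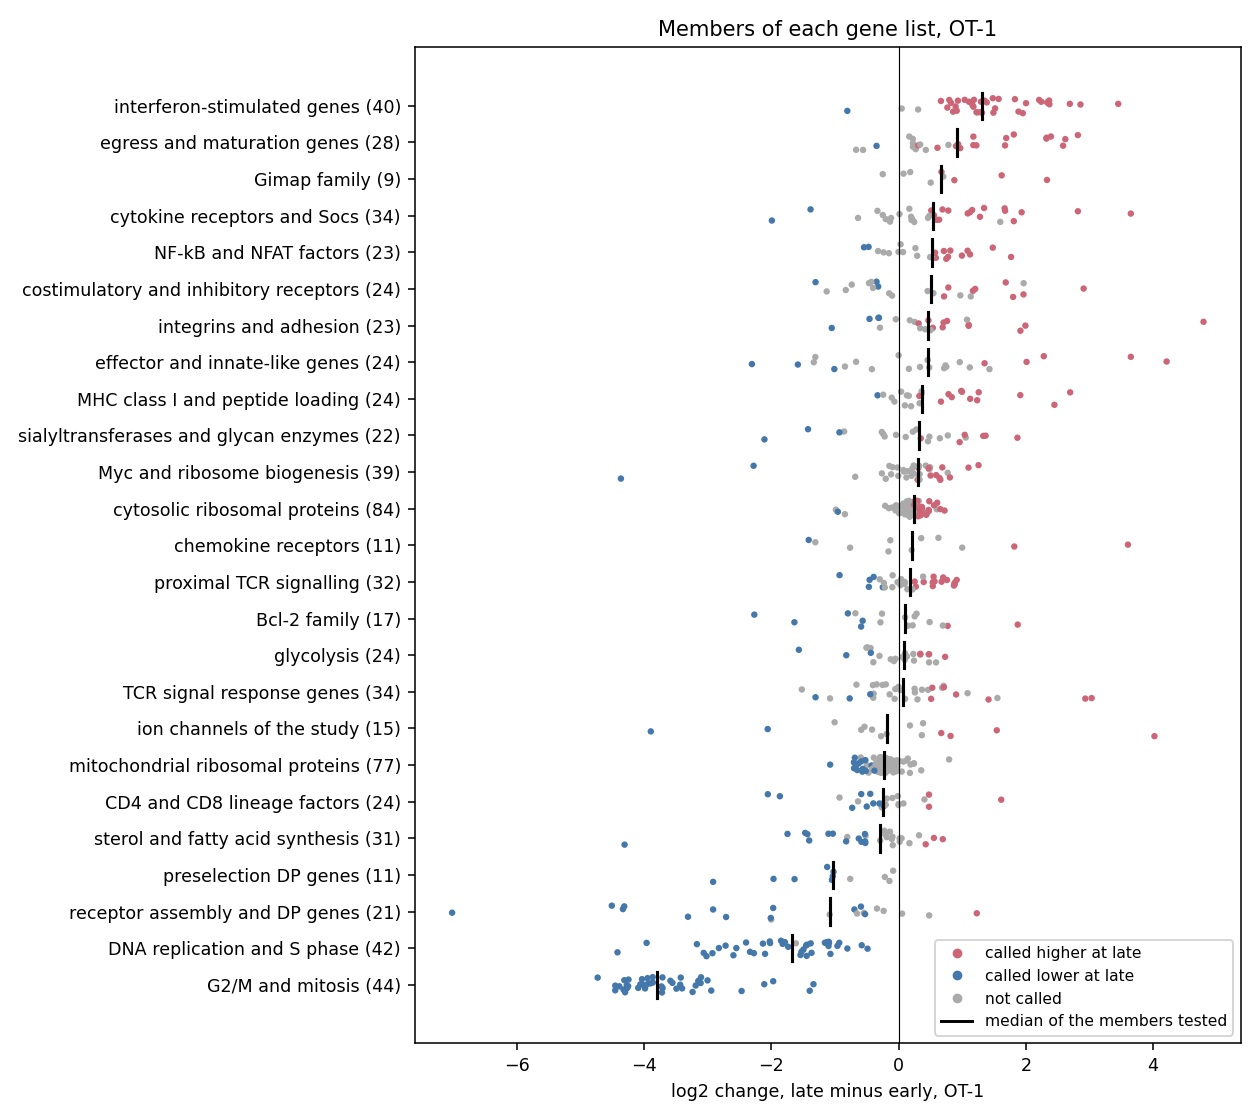
Change from early to late positive selection (log2, late minus early) of every measured member of 25 gene lists in OT-1 thymocytes, coloured by call, with a black bar at the median of each list. The mitotic list lies wholly to the left with a median of -3.80, and the interferon-stimulated list has the highest median, 1.30.

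Whether the same step differed in the other lines was tested as an interaction, the OT-1 change minus the change in the other line. It was called for 334 genes against TG6 (2.04% of those tested), of which the OT-1 change was smaller in the same direction in 214, larger in 11 and opposite in sign in 109. Against F5 it was called for 275 genes (1.68%), with 75 smaller, 52 larger and 148 opposite. Both interactions use the same OT-1 libraries. Receptor, strain and Rag genotype differ together between the lines and cannot be told apart. F5 late replicate 2 stood apart from its group, with a mitotic sum of 24015 normalized counts where the other libraries had 8114 and 8173 and Rag1 at 1658 where the others had 62.3 and 109. F5 mice carry a Rag1 deletion, so these Rag1 counts report on the locus and not on the protein. Without F5 late replicate 2, 346 genes were called against F5, 229 of them among the 275. Both counts moved with the libraries in the fit. Against F5 it was 137 without OT-1 late replicate 1, 161 without OT-1 early replicate 1, 168 without OT-1 early replicate 2, 161 without F5 early replicate 2 and 163 without F5 early replicate 3. Against TG6 it was 111 to 278 on leaving out any single library, lowest without TG6 late replicate 2, and 734 when the fit held only the groups compared.

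Gimap4, a GTPase of lymphocyte survival, rose less in OT-1 than in either line. OT-1 cells had 2503, 2236 and 2717 early and 7464, 6705 and 8827 late (1.62 ± 0.17), while TG6 cells had 116, 116 and 92.4 early and 5137 and 5618 late (5.63) and the F5 change was 4.0. The differences were -4.01 (adjusted p = 5.7e-09) and -2.38 (adjusted p = 1.1e-05). The early OT-1 level was the one that stood apart, and the late levels were closer to each other. The same order of changes was seen in Itgb3, with of 4.89 in TG6 and 4.56 in F5 against 1.99 in OT-1 (differences -2.90, adjusted p = 1.6e-05, and -2.57, adjusted p = 3.7e-05), and in Gpr18, a G protein-coupled receptor, with 5.91 and 4.42 against 2.35. Of the 28 exit genes, 7 had a smaller OT-1 change than TG6 (2.04% of all genes differed from TG6 in either direction), Il7r among them (2.82 against 5.87, difference -3.05, adjusted p = 0.016), and of 9 Gimap genes 3 did. Itm2a, a gene induced by receptor signals, was at 8636, 10468 and 7537 early and 9500, 9294 and 13127 late in OT-1 cells and was not called (0.26), with changes of 2.34 in TG6 and 1.81 in F5 (differences -2.08, adjusted p = 0.00065, and -1.56, adjusted p = 0.0057). Tox differed in sign, with -0.45 in OT-1, 0.59 in TG6 and 0.63 in F5 (differences -1.04, adjusted p = 0.0014, and -1.08, adjusted p = 0.00062).

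Against F5, Itgae had the largest difference among the named genes that rose in OT-1. F5 cells had 18.5, 21.3 and 13.6 early and 44.9, 14.1 and 25.5 late (0.51), a difference of 4.28 from the OT-1 change. Tspan9, a tetraspanin, had 157, 132 and 134 early and 2196, 2189 and 1746 late in OT-1 cells (3.85 ± 0.35) but 110, 67.5 and 50.5 early and 130, 67.7 and 155 late in F5 cells (difference 3.23, adjusted p = 0.0011). F5 libraries overlapped between stages for both genes and OT-1 libraries did not. Irf4 (difference 2.13, adjusted p = 0.0053), H2-K1 (1.36, adjusted p = 0.002), Trac (1.00, adjusted p = 0.0089) and Dtx1 (1.42, adjusted p = 0.011) also rose more in OT-1 than in F5. Mme, a membrane metallopeptidase, was at 15793, 16416 and 14160 early and 7672, 7708 and 8101 late in OT-1 cells (-0.98, not called, but with an adjusted p of 0.00032 when the fit held only the groups compared), at 2.06, 0 and 0.684 early and 16.6, 12.7 and 2.87 late in F5 cells, and listed at 0 in all TG6 libraries of these stages.

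The interferon-stimulated list differed from F5 in 14 of its 40 members (1.68% over all genes), all with a larger OT-1 change, and from TG6 in 5 (2.04% over all genes), all with a smaller OT-1 change. The list's median change was 1.30 in OT-1, 1.95 in TG6 and 0.16 in F5. Dendritic cell markers moved with the TG6 change, with sums of 239 to 256 early and 699 to 1220 late in TG6, against 436 to 1161 and 416 to 502 in OT-1 and 106 to 628 and 83.1 to 130 in F5, and their part in the difference was not tested. Other markers moved as well, and their part was not tested either. Thymic epithelial sums were 586 to 595 early and 296 to 346 late in F5. B cell sums were 7105 to 8618 early and 2802 to 2829 late in TG6, and 8018 to 10408 and 3383 to 4854 in F5. Bst2, the tetherin that holds virus particles, had 209, 253 and 168 early and 628, 562 and 561 late in OT-1 cells (1.49 ± 0.17), against 189, 223 and 204 early and 91.9, 85.3 and 77.4 late in F5 cells (-1.27), a difference of 2.75 (adjusted p = 2.3e-06). Ifit3, whose promoter is printed above, changed by 0.11 in F5 (difference 2.25, adjusted p = 0.02). The mitotic medians were -3.80 in OT-1, -4.95 in TG6 and -5.18 in F5. Against TG6, 1 of 44 mitotic genes (2.04% over all genes), Kif23, had a called difference (-1.47, adjusted p = 0.0033), and none of the S phase list did. Kif23 fell more in OT-1 than in TG6, the reverse of the order of the medians. Against F5 the count turned on F5 late replicate 2, whose mitotic median was -2.96 from the OT-1 early mean where the other F5 late libraries were at -6.26 and -5.99. With it none of the 44 mitotic genes had a called difference. Without it the F5 median was -6.16, and 21 of the 44 fell less in OT-1 than in F5, Cdk1 and Mki67 among them. Over all genes, 346 of 16372 were called against F5 in that fit. That library stood apart by its mitotic sum. More calls in this list without it therefore followed from that choice and are no separate support for a difference. In the S phase list, Pole, the leading strand polymerase (2.58, adjusted p = 0.017), and the transcription factor E2f1 (1.67, adjusted p = 0.02) fell less in OT-1 than in F5. Without that library 5 of 42 did, under the same limit. The interferon-stimulated count was 14 of 40 without it too, with an F5 median of 0.058.

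**Figure D5:**
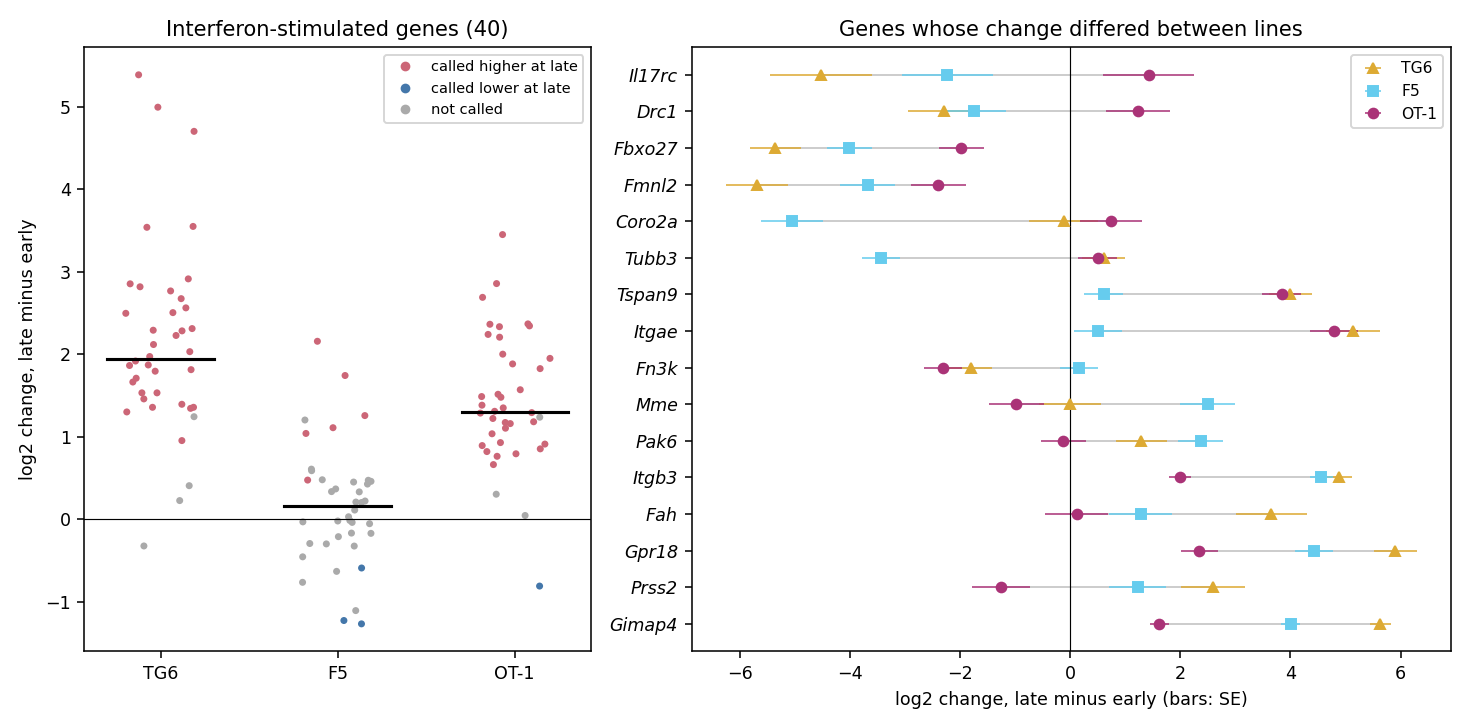
Left, change from early to late (log2) of the 40 interferon-stimulated genes in the 3 lines (TG6, F5, OT-1), with bars at the medians of 1.95, 0.16 and 1.30. Right, the change with its SE in the 3 lines for the 16 genes with the largest interactions, where the OT-1 points of Gimap4, Gpr18 and Itgb3 lie below those of TG6 and F5 and that of Itgae lies far above F5.

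Markers of other cells of the thymus were summed in the 6 libraries. Dendritic cell markers summed to 436 to 1161 normalized counts early and 416 to 502 late. Of 9 tested, 4 fell, where 14.0% of all genes did, namely Itgax, H2-Ab1, Flt3 and Siglech, each at 207 or less in every library. H2-Ab1 lost its call without late replicate 2 (adjusted p = 0.08), and Flt3 without early replicate 1 or 2 or late replicate 1 or 2 (0.059 to 0.082). Their part in the other decreases was not tested. No macrophage marker of 7 tested was called (sums of 116 to 320 early and 117 to 191 late), nor any B cell marker of 5 tested (5875 to 7841 and 5407 to 7437, nearly all Ighm). Of the thymic epithelial markers, summing to 435 to 516 early and 665 to 920 late, Foxn1, Krt5 and Krt14 were listed at 0 in all 6 libraries, and of the 5 tested Ly75 was called (0.77). Granulocyte markers were at or near 0, with sums of at most 3.44. Erythroid markers summed to 336 to 1280 early and 69.1 to 1102 late, with replicate 3 the highest for Hba-a1 at both stages. Stromal markers summed to 3338 to 3554 early and 2921 to 3097 late and were mostly Pecam1, which was not called (-0.18), with Col3a1 listed at 0. NK and gamma-delta markers summed to 9013 to 9854 early and 10734 to 12343 late and were mostly Trdc, which was not called (0.31; adjusted p = 0.014 when the fit held only the groups compared), with Ncr1 and Klra8 listed at 0.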

How the data were processed

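RNA was sequenced from sorted thymocytes, with 3 OT-1 libraries per stage numbered as biological replicates. The authors deposited normalized counts (a signal, not raw counts), which per the labels and methods came from reads trimmed with Trimmomatic 0.32, aligned with Bowtie2 2.3.2 to mm10, estimated with RSEM 1.2.31 and scaled by DESeq2's median of ratios. Only about 43.0 to 43.7% of values in OT-1 libraries were whole multiples of what 1 read is worth (tolerance 0.01), so no count test was run. Groups came from the labels. Values were tested as log2(value + 1), which understates changes of low genes, with limma 3.58.1 (R 4.3.3, empirical Bayes with trend) over all 26 libraries in 9 groups, with 17 residual degrees of freedom. Genes under 10 in all but 1 library were left out (minimum 2 libraries), and the threshold for a call was 0.05. On simulated data the fit called 83 of 100 genes changed by log2 1, 99 of 100 changed by log2 2 and 5 of 16172 unchanged genes. The difference from F5 was called for 6 of the unchanged genes. The simulated libraries were independent, with an assumed spread and no outlying library, so these are not the error rates of the real libraries. Named genes were the 10 largest called changes per direction with a mean of at least 100 in the higher group, so that some pass through that group alone, and no overlap, the 5 largest count differences per direction, up to 4 per direction in each of 26 lists, and the 4 largest interactions per direction; other list members were added after their values were seen. The members and lists were chosen with earlier results of these data known. Positions are from GENCODE vM21 (GRCm38), matched for 92.8% of genes tested, and promoters from RefSeq (GRCm38.p6). Whether a replicate number marks a mouse is not stated, and p-values measure the spread between these libraries. Alternatives were the filter, pseudocount, scaling, samples in the fit, prior trend, a replicate block and leaving out each library. Some members of the lists are not reported here.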

Additional observations from a re-analysis of the deposited data

Results flagged for a closer look

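The genes named for the largest differences between lines were tested by limma as the OT-1 change from early to late minus the change of the other line, on the log2 scale, and each passed an adjusted p under 0.05. Against TG6, the difference was positive for Il17rc (5.95), Drc1 (3.52), Fbxo27 (3.38) and Fmnl2 (3.30). In TG6 cells Il17rc fell by 4.52 and Fbxo27 fell by 5.35. In OT-1 cells Fbxo27 fell as well, by less, from 171, 140 and 155 normalized counts early to 39.9, 30.9 and 46.8 late (-1.98). The difference from TG6 was negative for Gimap4 (-4.01), Prss2 (-3.85), Gpr18 (-3.56), Fah (-3.53) and Itgb3 (-2.90). Prss2 was at 5.92 or less in each of the 6 OT-1 libraries, so its difference rests on the TG6 libraries.

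Against F5, the difference was positive for Coro2a (5.78), Itgae (4.28), Tubb3 (3.93), Tspan9 (3.23), Amigo2 (1.93) and Rnf213 (1.12). F5 cells had 39.5, 57.1 and 89.7 normalized counts of the coronin gene Coro2a early and 0, 4.95 and 0 late, and 49.7, 86.1 and 67.0 of the neuronal tubulin gene Tubb3 early and 10.2, 6.02 and 2.04 late, while neither gene was called in OT-1 cells. The difference was negative for Mme (-3.48), Itgb3 (-2.57), Pak6 (-2.49), Fn3k (-2.47), Gimap4 (-2.38) and Gpr18 (-2.07). Mme was at 16.6 or less in each F5 library, near the floor of these counts, so its value depends on the pseudocount (adjusted p = 0.080 with a pseudocount of 0.1) and could not be compared firmly. F5 late replicate 2, which stood apart from its group, enters each of these values.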

How the results depend on the processing

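The number of genes called between OT-1 early and late libraries was 3976 to 4624 under the other filters, pseudocounts, scalings, fits and priors, with 3736 to 4313 shared with the 4367, and after quantile normalization the split was 2318 higher and 2131 lower. A replicate block gave 5820 calls, 4347 of them shared, with 2828 higher and 2992 lower. Same-numbered early and late libraries deviated together only weakly (r = 0.0189, 0.082 and 0.145), so the numbers were not read as pairs. Leaving out 1 library gave 3274 to 3880 calls, 1550 to 1822 higher and 1716 to 2058 lower. Differences from TG6 numbered 734 with only the groups compared (310 of the 334 shared), 732 with a replicate block (323 shared) and 111 to 278 on leaving out 1 library. The count was under 334 by more than 1.5 times without OT-1 early 1 (201), early 2 (191), late 1 (171) or late 2 (218) or TG6 early 3 (182), late 1 (135) or late 2 (111); TG6 late then has 1 library, assumed to vary like the other groups. Differences from F5 numbered 728 with a replicate block (275 shared) and 137 to 346 on leaving out 1 library, the low counts being without OT-1 early 1 (161), early 2 (168) or late 1 (137) or F5 early 2 (161) or early 3 (163). The cause was not tested. Over 181 named genes, 1739 of 1797 values under other settings kept direction and call, 54 lost the call, 4 gained it and none reversed; on leaving out 1 library 956 of 1086 kept both, 124 lost the call, 3 gained it and 3 reversed. Those were Fah, at -0.36 without OT-1 early replicate 2 and -0.024 without late replicate 2 (at most 0.45, without early replicate 1), and Nr4a1, at 0.039 without late replicate 3 (at least -0.86, without early replicate 3), neither of which was called in OT-1 cells. Read depth was similar in all OT-1 libraries, and genes under about 10 normalized counts could not be compared.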
